A study of Caenorhabditis elegans with 6 samples.

Results

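Acetylation of histone H3 on lysine 27 (H3K27ac) was compared between whole Caenorhabditis elegans worms fed cco-1 RNAi bacteria and worms fed empty-vector bacteria, over every nuclear H3K27ac peak of the series. These were 17763 peaks of 34970 nuclear peaks in both marks, taken as every distinct region of the H3K27ac table outside the mitochondrial genome, and they were assigned to 12551 nearest genes. The cco-1 RNAi group was fed a mix of bacteria, 50% of them with the cco-1 RNAi clone and the rest with the empty vector (ev), and the ev group was fed empty-vector bacteria throughout. Both groups were wild-type strain N2 on E. coli HT115 per the sample labels, while the series design describes worms with an hsp-6 promoter fused to GFP. Eggs were placed on the bacteria at 20 °C and worms were collected as L4 larvae or young adults, fixed with 1% formaldehyde for 30 min and precipitated with the antibody Ab4729, per the labels. There was 1 library per group, so no difference below has a replicate check, and every interval covers counting error only. The inputs were not analysed here.

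H3K27ac marks active promoters and enhancers, and the CREB-binding protein family, CBP-1 in the worm, deposits it. cco-1 encodes a nuclear subunit of cytochrome c oxidase, the last complex of the respiratory chain. Its knockdown stresses mitochondria and switches on the mitochondrial unfolded protein response (UPRmt), in which the nucleus raises mitochondrial chaperones and proteases and resets metabolism and chromatin.

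The cco-1 RNAi library held 11593321 counts in nuclear peaks and the ev library 11556404, with medians of 317 and 359 counts per peak. Counts were divided by these totals and given as counts per 1000000 (CPM), and peak strength is the mean CPM of both libraries. "Higher" and "lower" mean a cco-1 RNAi to ev ratio past 1.5-fold in that direction. Genes are represented by their strongest assigned peak.

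At equal totals more peaks lost H3K27ac signal than gained it, and the losses lay mostly in weak peaks. In all, 1551 peaks were higher with cco-1 RNAi (8.73% of peaks) and 4098 were lower (23.1%). The higher peaks had a median ratio of 1.78 and held 15.1% of the cco-1 RNAi counts and 8.48% of the ev counts. The lower peaks had a median ratio of 0.555 and held 8.38% of the cco-1 RNAi counts and 15.8% of the ev counts. The median strength was 32.6 CPM in the higher and 15.4 CPM in the lower peaks. The exact (Clopper-Pearson) 95% interval of the ratio lay wholly past 1.5-fold for 869 higher and 1815 lower peaks. The peaks just inside and just outside either threshold all had log2 ratios of 0.585 or -0.585.

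The split between gains and losses depends on the scaling. The median log2 ratio of all peaks was -0.19. Setting that median to 0 adds 0.19 to every log2 ratio and gave 2621 higher and 2564 lower peaks, and trimmed-mean scaling adds 0.17 and gave 2507 and 2685. The order of peaks, genes and gene classes by ratio is the same under all these scalings, and class medians below are read beside the median of all genes.

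The ratio went with peak strength. From the weakest to the strongest decile of peaks the median log2 ratio ran from -0.65 to 0.12, crossing 0 at decile 8. In the weakest decile 54.2% of peaks were lower and 14.5% higher, and in the strongest 7.48% were lower and 16.1% higher. The share of higher peaks was thus lowest in the middle, at 4.56% in decile 7. The trend between deciles 2 and 7 was nearly the same whichever library ranked the peaks. The ends were not: in the weakest decile the median was -0.91 when peaks were ranked in the cco-1 RNAi library and -0.27 when ranked in the ev library, and in the strongest it was 0.23 and 0.01. Ranked in the ev library, the weakest decile held 28.1% higher and 33.9% lower peaks. For this reason several classes below are also given a strength-adjusted ratio, the log2 ratio minus the median of peaks of like strength, whose median over all genes was -0.02.

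**Figure D1:**
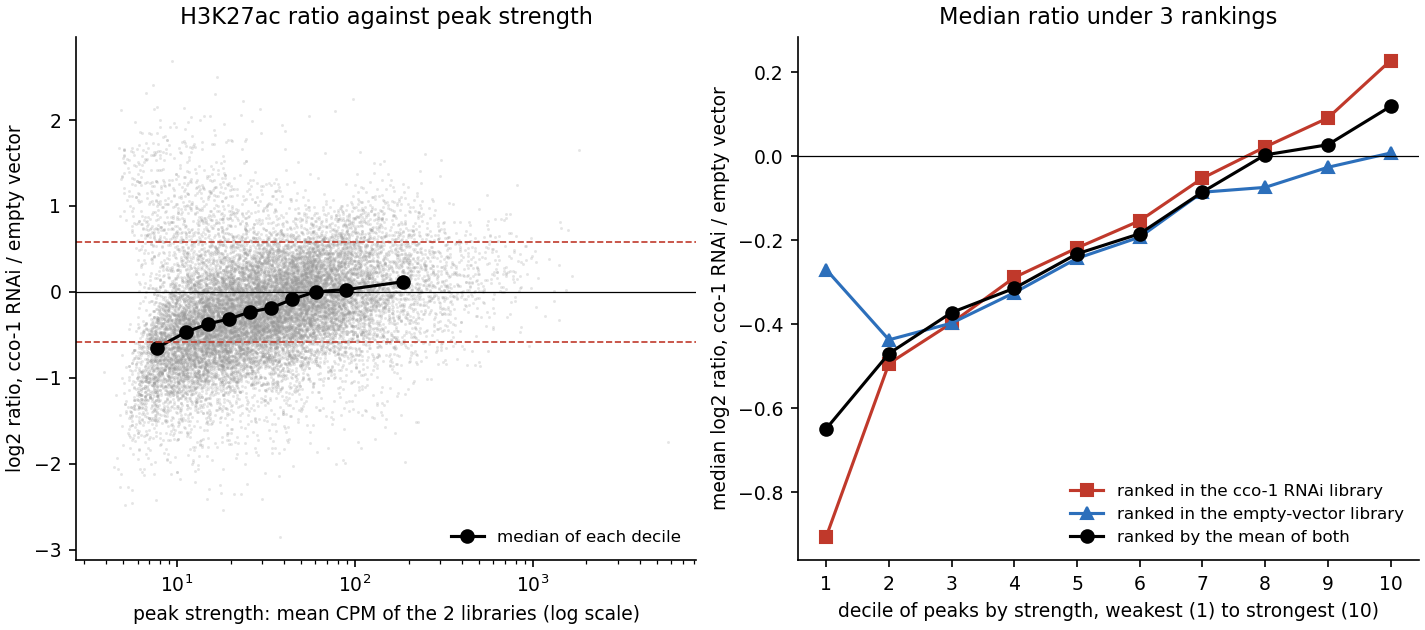
Left, each point is a nuclear H3K27ac peak, with its mean CPM on a log axis and its log2 ratio (cco-1 RNAi over empty vector); the black line joins decile medians and dashed lines mark 1.5-fold. Right, the median log2 ratio of each decile when peaks are ranked in the cco-1 RNAi library, in the empty-vector library or by the mean; the weakest decile runs from -0.91 to -0.27 with the ranking, while the middle deciles nearly coincide.

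Weak peaks are also narrow. Of 5306 peaks up to 400 bp wide, 34.02% were lower, and of 358 peaks over 2000 bp wide, 8.38% were lower and 11.5% higher. The place relative to the nearest gene mattered less. Within 1 kb of a gene start 22.9% of 11124 peaks were lower and 9.47% higher. In gene bodies, where enhancers can also lie, 23.2% of 2446 peaks were lower and 5.60% higher.

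The losses gathered in particular places, foremost the left part of chromosome II, when the span that peaks cover on each chromosome is cut into 3 equal parts. There 453 of 1092 peaks were lower (41.5%) and 49 were higher (4.49%), with a median log2 ratio of -0.46 and a strength-adjusted median of -0.25. The right part of chromosome V had 31.5% lower peaks and the right part of chromosome I 30.1%. On chromosome III, by contrast, 16.9% of peaks were lower, and in the middle part of chromosome I 14.2% were higher. Chromosome X, of which the table covers the first 12.9 Mb, had 26.6% lower peaks with a strength-adjusted median of -0.01. The left part of II ends at 5.09 Mb, and the parts are not chromosome landmarks.

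**Figure D2:**
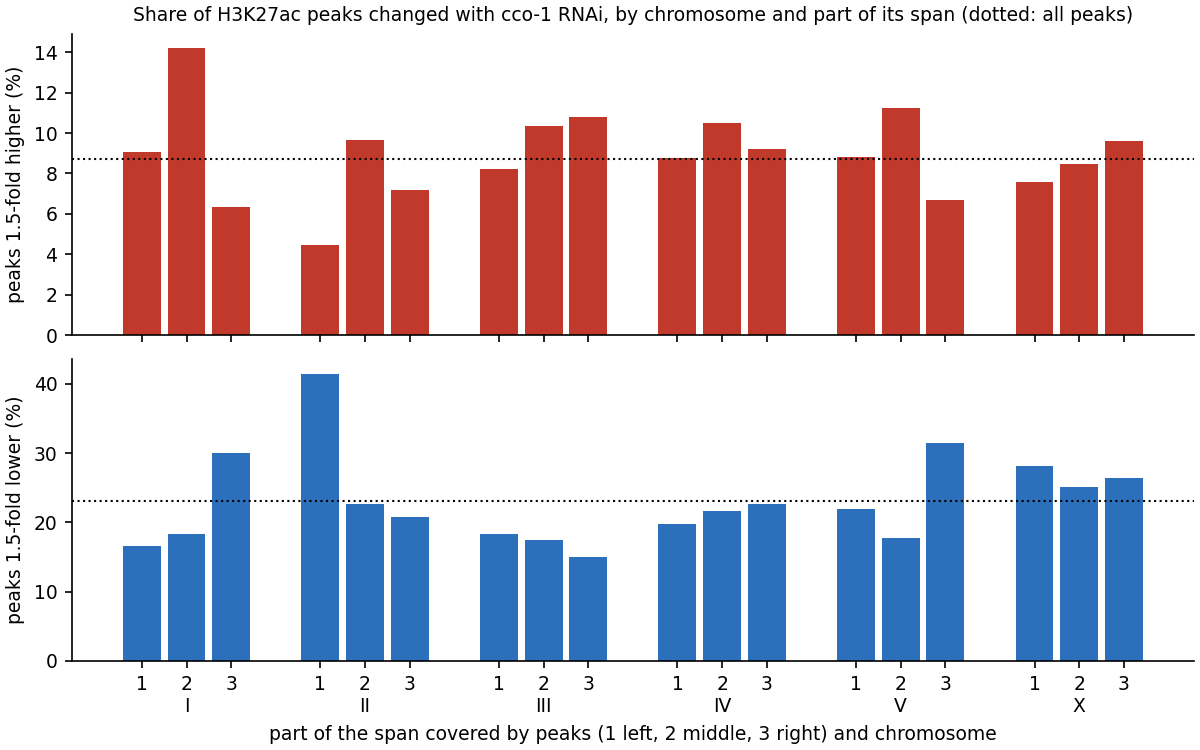
Bars give the percentage of H3K27ac peaks at least 1.5-fold higher (top) and lower (bottom) with cco-1 RNAi, for the left, middle and right part of each chromosome's span; dotted lines are the shares over all peaks, 8.73% and 23.1%. The left part of II has the tallest bar for lower peaks (41.5%) and the shortest for higher peaks (4.49%).

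Neighbouring peaks moved together. The strength-adjusted ratios of adjacent peaks less than 0.5 kb apart correlated at r = 0.59 over 1966 pairs, and r was 0.16 over 4645 pairs 5 to 20 kb apart, as a description across sites that share both libraries. At equal totals, where far more peaks were lower than higher, runs of 5 or more lower peaks in a row numbered 109 and held 743 peaks, 18.1% of the lower ones, and 21 of them with 210 peaks lay in the left part of chromosome II. Runs of 5 higher peaks numbered 6, and none was longer. With median scaling, where higher and lower peaks were nearly equal in number, runs of 5 or more numbered 25 higher, up to 8 peaks long, and 49 lower, up to 14 peaks long.

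The 5 longest lower runs at equal totals all lay in that part. The longest ran from 1630244 to 1753439 (coordinates as in the deposited table, WBcel235 per the submitters' processing notes) and held 30 peaks next to 25 genes. Its summed signal was 531 CPM with cco-1 RNAi and 989 CPM with ev, 0.537-fold, and the ratios of its peaks lay between 0.196 and 0.665. Its genes include fbxb-11, fbxb-15, fbxb-17, fbxb-47 and fbxb-48, whose F-box is known for linking substrates to SCF ubiquitin ligases. They also include btb-6, btb-7, btb-9 and btb-13, with a BTB domain known from adaptors of cullin-3 ubiquitin ligases, the homeobox genes ceh-81, ceh-82 and ceh-83, and the chemoreceptor genes srg-20, srh-72 and str-179. The peak next to btb-13 had 6.90 CPM with cco-1 RNAi and 35.1 CPM with ev, and that at ZC204.14, the strongest of the run, 246 and 371 CPM. Most peaks of the run were weak, with a median strength of 10.1 CPM, and their strength-adjusted median was -0.76. H3K18ac was lower at 9 of 15 peaks in the same interval and higher at 0, beside 13.2% lower and 9.16% higher among all H3K18ac peaks.

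**Figure D3:**
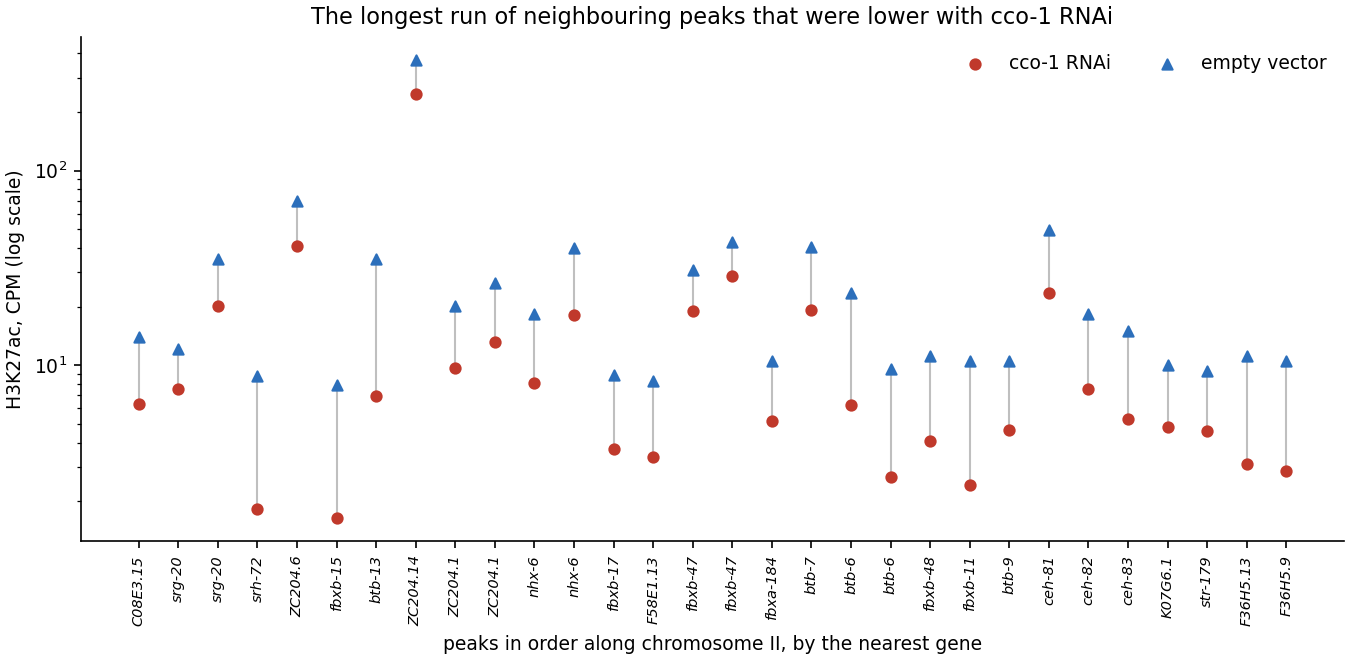
H3K27ac in CPM on a log axis for the 30 neighbouring peaks of the longest lower run, in order along chromosome II and named by nearest gene, with cco-1 RNAi as circles and empty vector as triangles. All circles lie below their triangles, at btb-13 6.90 against 35.1 CPM.

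The nearest of the other named runs on either side also held F-box genes. A run of 14 peaks from 1759393 to 1874491, at fbxb-10, fbxb-13, fbxb-53, fbxc-19 and math-11 among others, summed to 114 CPM with cco-1 RNAi and 292 CPM with ev. A run of 13 peaks from 909371 to 973684, with 6 fbxc genes and the lectin genes clec-43 and clec-44, summed to 178 and 498 CPM, and H3K18ac was lower at 12 of its 12 H3K18ac peaks. In both runs further right no gene had a symbol of the F-box, MATH or BTB families. Genes there with only a clone name were not checked for these domains. That from 2651279 to 2703418, with 13 peaks at the receptor guanylate cyclase gcy-21 and the chemoreceptors sri-47, sri-59 and sri-60, summed to 189 and 377 CPM. That from 3584977 to 3676693, with 21 peaks, summed to 403 and 744 CPM. Its genes were wago-11, an Argonaute gene, the chemoreceptor srh-60, linc-17, linc-68 and uncharacterised genes.

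The higher runs contained other genes. On chromosome III from 11682960 to 11692779, 5 peaks at Y41C4A.29 and Y41C4A.30 summed to 629 CPM with cco-1 RNAi and 301 CPM with ev. On chromosome I from 1046309 to 1052207, 5 peaks at glrx-10, a glutaredoxin gene, and Y34D9A.8 summed to 544 and 287 CPM. On chromosome IV from 3636307 to 3647093, 5 peaks at madf-9 and CC8.2 summed to 777 and 438 CPM. The run with the largest ratio was weak: 5 peaks at ttll-4, ZK1128.10 and ZK1128.7 on chromosome III, from 10126149 to 10137273, summed to 120 and 44.0 CPM. The last of the 5, on chromosome IV from 11760637 to 11810342 at T12A7.2, H01G02.7 and linc-151, summed to 262 and 163 CPM.

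By gene, 1094 were higher (8.72% of genes) and 2744 lower (21.9%), with a median log2 ratio of -0.17. Among the 3012 genes with a peak of top-quarter strength at their start, 11.9% were higher and 9.13% lower. Because whole worms were used, fewer cells of a type and less acetylation per cell cannot be told apart in any class below.

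**Figure D4:**
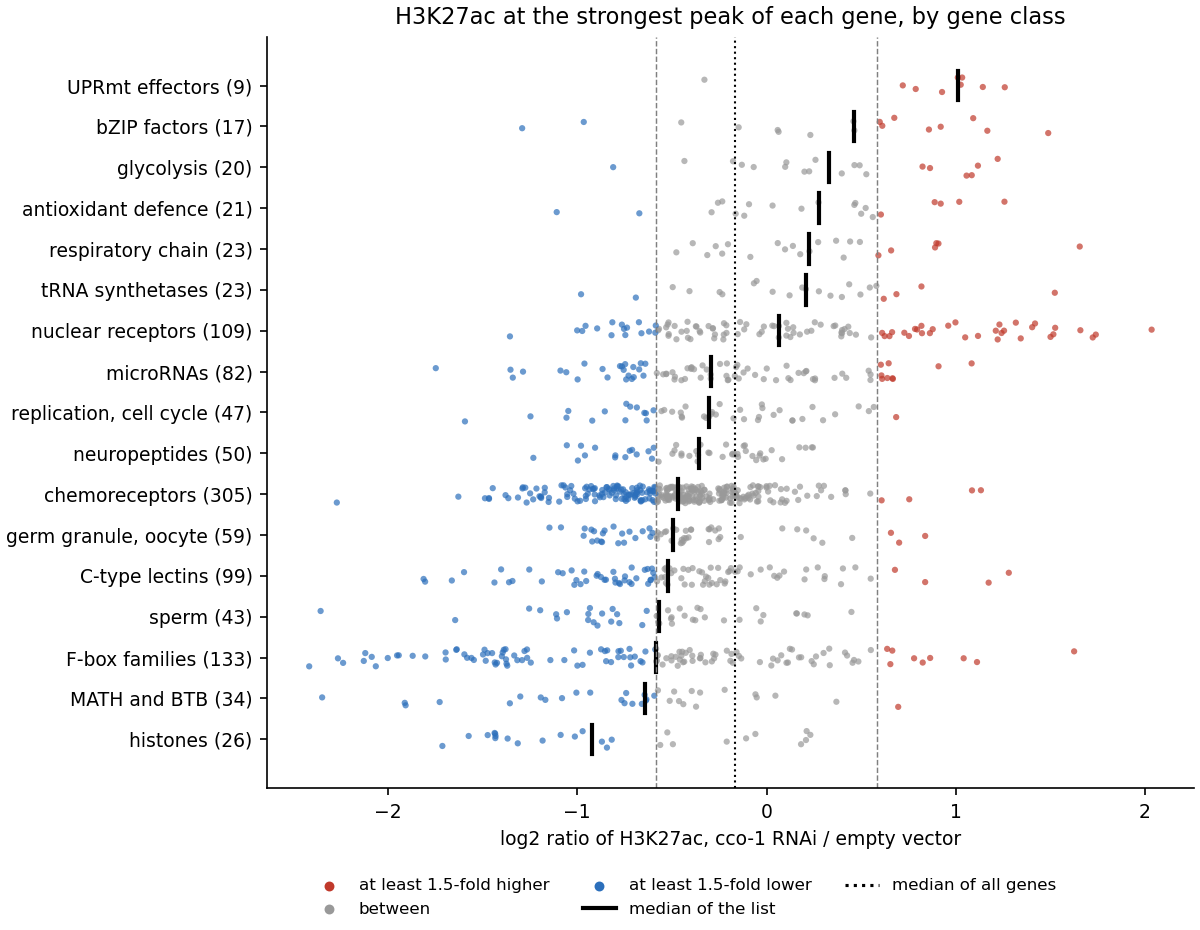
Each point is a gene at its H3K27ac log2 ratio (cco-1 RNAi over empty vector), in classes with the number of measured genes in brackets; bars are class medians, the dotted line is the median of all genes (-0.17) and dashed lines mark 1.5-fold. Classes run by median from UPRmt effectors (1.01) to histones (-0.92).

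The F-box genes were lower as a group, and the losses were uneven among their families. Of 133 measured genes 65 were lower and 9 higher, with a median log2 ratio of -0.58. Families were split after their values were seen. Of 45 fbxb genes 34 were lower and 0 higher, with a median of -1.26 and a strength-adjusted median of -0.79. Of 19 fbxc genes 14 were lower and 1 higher, with medians of -1.38 and -0.93. Of 69 fbxa genes 17 were lower and 8 higher, and their strength-adjusted median was 0.03.

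Location and family went together. In the left part of chromosome II 37 of 46 F-box genes were lower (80.4%), and elsewhere 28 of 87 (32.2%). The fbxb family nevertheless leaned the same way in both places, with 22 of 25 lower there and 12 of 20 lower elsewhere. Away from II, fbxb-101 on chromosome I had 39.4 CPM with cco-1 RNAi and 110 CPM with ev, and its neighbour fbxb-100 had 59.5 and 161 CPM. fbxa-82 on chromosome V was among the higher members, with 111 and 60.9 CPM. Genes of these families are near-identical in places, so reads may be shared between copies.

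The MATH and BTB genes, which lie mostly in the same region, were lower in 20 of 34 cases and higher in 1, with a median log2 ratio of -0.64. Within the left part of II 18 of 25 were lower, and elsewhere 2 of 9. math-38 had 26.2 CPM with cco-1 RNAi and 52.6 CPM with ev. Genes without a symbol of the F-box, MATH and BTB, chemoreceptor or lectin families were also lower there more often than elsewhere. The lower ones were 239 of 639 there (37.4%), against 2264 of 11341 elsewhere (20.0%).

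Chemoreceptor genes, a large family of receptors of sensory neurons, were lower in 114 of 305 cases and higher in 4. Their median log2 ratio was -0.47 and the strength-adjusted median -0.24. In the left part of chromosome II 22 of 38 were lower, beside 324 of 763 among all genes there. On chromosome V, where most lie, 30 of 108 were lower in the left and 34 of 88 in the right part. Among all genes in these parts of V, 185 of 854 and 283 of 923 were lower. On strength-adjusted ratios 41 of the 305 chemoreceptor genes were lower, beside 10.4% of all peaks. srh-171 had 20.1 CPM with cco-1 RNAi and 62.1 CPM with ev, and srh-33 had 23.9 and 58.3 CPM. str-253 went the other way, with 239 and 113 CPM. Of 17 neuron markers 3 were lower, among them unc-25 and cat-2 of single transmitter types, and 2 were higher. The median of the 17 was 0.06 and their summed signals were 937 and 832 CPM. Among 50 neuropeptide genes 15 were lower and 0 higher, beside 21.9% lower and 8.72% higher among all genes. Of the 15, 7 were among the 14 insulin-like genes, for example ins-30 with 30.97 and 61.1 CPM. The neuropeptide class had a median log2 ratio of -0.36 and a strength-adjusted median of -0.13, against -0.17 and -0.02 for all genes.

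C-type lectin genes, many of which respond to pathogens, were lower in 42 of 99 cases and higher in 4, with a median log2 ratio of -0.52. In the right part of chromosome I 13 of 20 were lower. clec-266 had 54.4 CPM with cco-1 RNAi and 140 CPM with ev, and clec-10 the reverse, with 64.5 and 26.6 CPM. Lysozyme and antimicrobial genes were lower in 6 of 28 cases and higher in 0, near the share of all genes.

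Nuclear hormone receptor genes had the highest share of gains among the classes with over 50 measured genes. Of 109 measured genes 32 were higher (29.4%) and 16 lower, with a median log2 ratio of 0.07 and a strength-adjusted median of 0.25. In the left part of chromosome V, 17 of 35 nuclear receptor genes were higher and 3 lower, beside 80 higher and 185 lower among all 854 genes there and 1 higher among the 108 chemoreceptor genes. nhr-132 had 215 CPM with cco-1 RNAi and 74.8 CPM with ev, and nhr-204 had 220 and 93.1 CPM. On other chromosomes nhr-80, which controls fatty acid desaturases, had 338 and 128 CPM, and nhr-45 had 51.8 and 21.7 CPM. Many of the other higher members were weak peaks, such as nhr-226 with 19.1 and 4.67 CPM. nhr-23, which drives moulting, was lower, with 108 and 166 CPM. H3K18ac was higher at 18 and lower at 13 of 110 nuclear receptor genes, beside 8.04% higher and 13.1% lower among all genes with an H3K18ac peak.

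Among 17 bZIP factor genes 8 were higher and 2 lower, with a median log2 ratio of 0.46. zip-12 had 205 CPM with cco-1 RNAi and 72.9 CPM with ev. crh-1, which encodes the worm CREB, had 143 and 63.8 CPM, and cebp-1, a C/EBP factor, 291 and 161 CPM. ces-2, known from cell-death specification, was lower, with 77.1 and 189 CPM, and so was zip-8, with 59.9 and 117 CPM. The gains were partly away from the gene starts: at the peak nearest to the start, 3 of the 17 were higher. Of 6 GATA factor genes 1 was higher and 1 lower, and of 43 homeobox genes 3 were higher and 10 lower. The homeobox counts were near the shares of all genes, 8.72% higher and 21.9% lower. The homeobox median log2 ratio was -0.36, against -0.17 for all genes. The homeobox gene ceh-93 had the largest ratio of all genes with a top-quarter peak at the start, 160 CPM with cco-1 RNAi and 33.7 CPM with ev, 4.75-fold (95% interval 4.26 to 5.32).

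Effector genes of the UPRmt were nearly all higher. Of 19 listed UPRmt chaperones, proteases and import genes 9 had an assigned peak, and 8 of these were higher and 0 lower, with a median log2 ratio of 1.01. The largest ratio was at dnj-10, a mitochondrial DnaJ chaperone, with 58.4 CPM with cco-1 RNAi and 24.4 CPM with ev. The proteases spg-7 and ymel-1 had 92.3 and 162 CPM with cco-1 RNAi, against 41.8 and 80.6 CPM with ev. The prohibitin genes phb-1 and phb-2 had 454 and 299 CPM, against 222 and 157 CPM. The chaperonin gene hsp-60, the strongest of them, had 1954 and 1187 CPM. The exception was tomm-40, of the outer-membrane import pore, with 46.3 and 58.1 CPM at its strongest peak, where the peak nearest to the start had a log2 ratio of 0.90. The peak over the start of hsp-6, assigned to its neighbour C37H5.5, had 567 and 434 CPM, 1.31-fold (1.26 to 1.36).

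**Figure D5:**
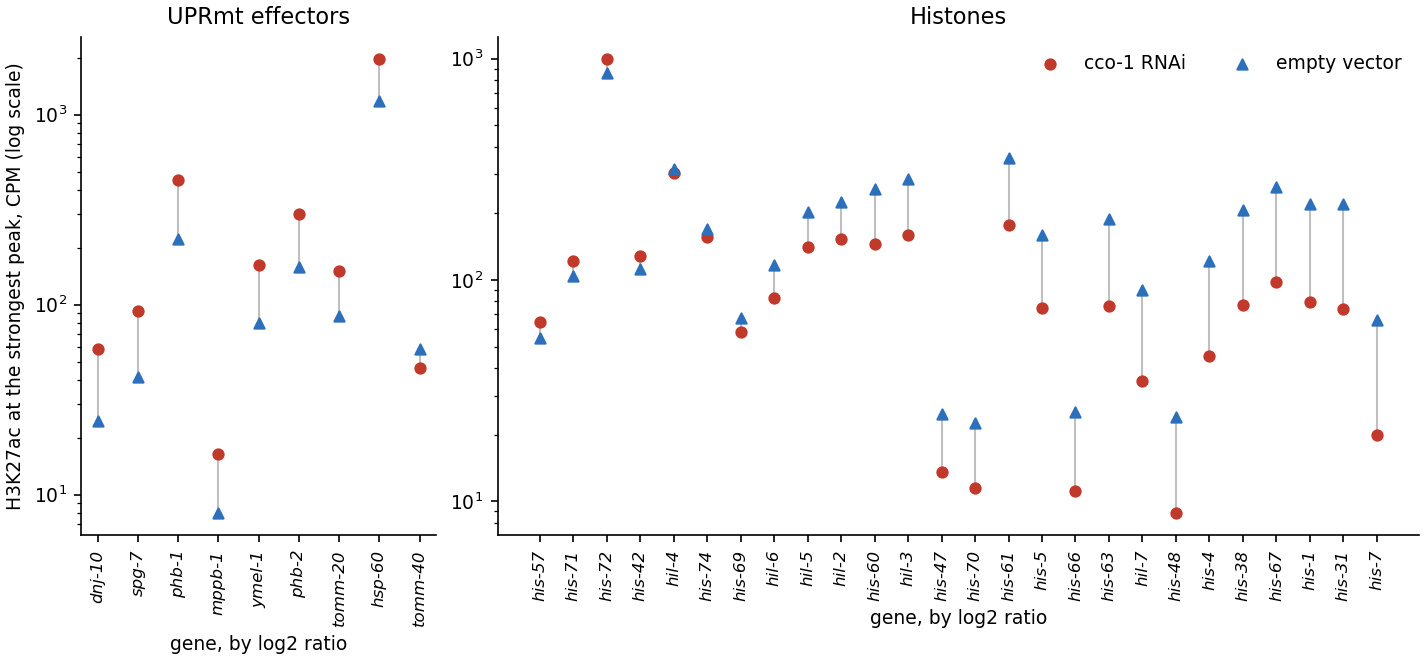
H3K27ac in CPM on a log axis at the strongest peak of each measured UPRmt effector (left) and histone gene (right), ordered by ratio, with cco-1 RNAi as circles and empty vector as triangles. Circles lie above triangles for 8 of 9 effectors, and far below them for most histone genes, at his-7 20.0 against 65.6 CPM.

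Regulators of the response varied. atfs-1, its main transcription factor, had 260 CPM with cco-1 RNAi and 189 CPM with ev at the start, and 74.0 and 40.8 CPM at a downstream peak. dve-1, a homeobox cofactor, had 58.2 and 41.5 CPM in its gene body. cbp-1 itself had 107 and 111 CPM at the peak nearest to its start. The deacetylase gene sir-2.1 was higher, with 125 and 75.5 CPM, and the demethylase gene jmjd-3.1 lower, with 32.1 and 56.0 CPM.

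Respiratory chain and glycolysis genes were more often higher than lower. Of 23 respiratory chain genes 6 were higher and 0 lower. The targeted gene cco-1 had 2765 CPM with cco-1 RNAi and 878 CPM with ev, 3.15-fold (3.08 to 3.22), and H3K18ac at the same place 3120 and 375 CPM. The RNAi bacteria carry cco-1 sequence, and reads from it cannot be told apart from chromosomal reads here. cco-2, another cytochrome c oxidase subunit, had 976 and 520 CPM, and the ATP synthase gene asb-2 362 and 195 CPM. Of 20 glycolysis and gluconeogenesis genes 6 were higher and 1 lower, among them the aldolase gene aldo-1 with 277 and 118.6 CPM and the hexokinase gene hxk-1 with 46.9 and 21.6 CPM.

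Of 21 antioxidant genes 5 were higher and 2 lower. gcs-1, the rate-limiting enzyme of glutathione synthesis, had 44.7 CPM with cco-1 RNAi and 18.7 CPM with ev, and the mitochondrial thioredoxin gene trx-2 had 43.5 and 21.5 CPM. Of 42 cytochrome P450, glucuronosyltransferase and glutathione transferase genes 7 were higher and 8 lower, with a median log2 ratio of -0.18, against -0.17 for all genes. Aminoacyl-tRNA synthetases were higher in 4 of 23 cases and lower in 2, for example the asparaginyl enzyme gene nars-1 with 458 and 260 CPM. Cytosolic ribosome genes, at a median strength of 314 CPM, were higher in 6 of 51 cases and lower in 0, and their strength-adjusted median was -0.03.

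Other housekeeping classes were mixed. Of 39 mitochondrial ribosome genes 5 were higher and 1 lower, with mrpl-38 at 229 CPM with cco-1 RNAi and 101 CPM with ev. Of 39 fatty acid genes 5 were higher and 4 lower, of 20 autophagy genes 4 and 1, and of 16 vacuolar ATPase genes 2 and 0. Of 22 proteasome genes 0 were higher and 3 lower, of 12 citric acid cycle genes 0 and 1, of 14 genes of the endoplasmic reticulum stress response 1 and 1, and of 9 cytosolic heat shock genes 0 and 2. Histone acetylation and methylation enzymes were lower in 10 of 40 cases and higher in 4, both slightly above the shares of all genes, and the histone methyltransferase gene met-1 had 93.2 and 166 CPM.

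Histone genes were lower at strong peaks. Of 26 core and linker histone genes 16 were lower and 0 higher, with a median log2 ratio of -0.92 at a median strength of 126 CPM, so the strength-adjusted median was also -0.91. The histone H4 gene his-31 had 74.3 CPM with cco-1 RNAi and 221 CPM with ev, 0.336-fold (0.311 to 0.363). The H4 gene his-1 had 79.1 and 220 CPM, and his-67 had 97.6 and 264 CPM. The H3.3 genes his-71 and his-72, whose products are used outside DNA replication, had 121 and 992 CPM, against 105 and 858 CPM. Another H3.3-like gene, his-70, was lower at a weak peak, with 11.5 and 22.5 CPM. H3K18ac had a median log2 ratio of -0.41 over 20 histone genes, with 7 lower and 0 higher, where all genes had a median of -0.04 and 13.1% lower. Reads may be shared among histone copies.

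Replication, oocyte and sperm genes were more often lower than all genes. Of 47 replication and cell cycle genes 14 were lower and 1 higher. cdc-25.2, a phosphatase of oocyte maturation, had 43.1 CPM with cco-1 RNAi and 130 CPM with ev, although its log2 ratio was -0.30 at the peak closest to the start. pcn-1, the replication clamp PCNA, had 67.5 and 140 CPM. The kinetochore gene knl-1 had 29.7 and 70.4 CPM. Of 59 germ granule, oocyte and eggshell genes 22 were lower and 3 higher, with a median log2 ratio of -0.49 and the same strength-adjusted median. Their summed signal was 3862 CPM with cco-1 RNAi and 5147 CPM with ev.

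Examples were mex-5 and mex-6, RNA-binding proteins of the early embryo, with 75.6 and 21.2 CPM with cco-1 RNAi, against 148 and 46.99 CPM with ev. egg-1, an oocyte surface protein, had 51.8 and 101 CPM. In H3K18ac 6 of 44 genes of the class were lower, beside 13.1% of all genes, with a median log2 ratio of -0.17 against -0.04 for all genes. Of 43 sperm genes 19 were lower and 0 higher, at a median strength of 25.1 CPM, and their summed signals were 1508 and 1914 CPM. On strength-adjusted ratios 7 of the 43 were lower, beside 10.4% of all peaks. The strongest sperm gene, ssq-2, did not pass 1.5-fold, with 131 CPM with cco-1 RNAi and 186 CPM with ev. Meiosis genes were lower in 5 of 23 cases, near the share of all genes.

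Somatic tissue markers differed among themselves. All 7 measured hypodermis markers had lower CPM with cco-1 RNAi, 3 of them past 1.5-fold, and their summed signals were 463 and 648 CPM. Their median log2 ratio was -0.56 and the strength-adjusted median -0.45, against -0.17 and -0.02 for all genes. The 5 pharynx markers summed to 143 and 210 CPM, with 3 lower. The 11 intestine markers summed to 638 and 500 CPM, with much of the difference at act-5, which had 196 and 89.5 CPM. Of the 11, 1 was higher and 2 lower, with a median log2 ratio of 0.005, beside -0.17 for all genes. Of 13 body wall muscle markers 0 were higher and 2 lower, the muscle regulator hlh-1 and unc-89. The 13 had a median log2 ratio of -0.19 and a strength-adjusted median of -0.25, against -0.17 and -0.02 for all genes. Of the 13 muscle markers, 9 had lower CPM with cco-1 RNAi by any amount. All 13 summed to 1757 and 1655 CPM, but without unc-60, the strongest, the other 12 summed to 915 and 1026 CPM. The part of tissue makeup or stage in the class differences was not tested. Cuticle collagen genes were lower in 18 cases (15.1% of those measured) and higher in 2. Both were below the shares of all genes, 21.9% lower and 8.72% higher.

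Of 580 piRNA loci 133 were lower (22.9%) and 54 higher (9.31%), near the shares of all genes, with a strength-adjusted median of 0.01. Of 82 microRNA genes 23 were lower (28.05%) and 9 higher, at a median strength of 52.2 CPM and with a strength-adjusted median of -0.19, against -0.02 for all genes. Of 153 tRNA genes 39 were lower and 9 higher, with a strength-adjusted median of -0.12. Within the microRNAs, mir-241 of the let-7 family had 367 CPM with cco-1 RNAi and 173 CPM with ev. mir-38, of the mir-35 family of embryonic microRNAs, had 210 and 376 CPM, and mir-44 had 48.8 and 125 CPM. Pseudogenes were lower in 208 of 557 cases and higher in 15.

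Single promoters stood out beyond these classes. After ceh-93, the largest ratios at top-quarter starts were at the non-coding gene M02F4.11, with 126 CPM with cco-1 RNAi and 29.2 CPM with ev, and, beside cco-1, at F09E10.1 with 161 and 51.9 CPM and F41H10.3 with 453 and 156 CPM. At F41H10.3 another peak that overlaps the start had a log2 ratio of -0.25. The other genes among the 12 were nhr-132, nhr-80, rmo-1, C10C5.2, F21F3.6 and, at a shared peak, Y55F3BR.15 and Y55F3BR.18, with ratios down to 2.50. The lowest ratios were 0.249 at Y71F9AL.6, with 31.1 and 125 CPM, and 0.253 at the pseudogene T02G5.4, with 76.9 and 304 CPM. cav-1, which encodes a caveolin, had 47.7 and 167 CPM. The others among the 12 were C32B5.18, ZK512.1, C35E7.5, F54D5.21, C54D1.9, fbxb-101, his-31, his-1 and the ribosomal RNA gene rrn-2.1. H3K18ac leaned the same way, by any amount, at all 24 of these genes, for example 40.5 and 79.9 CPM at cav-1. These genes were picked for their H3K27ac ratios and include the shared peak. The share of all genes at which both marks lean alike was not taken.

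The ribosomal RNA peak at rrn-2.1 was the strongest of all, with 2642 CPM with cco-1 RNAi and 8883 CPM with ev, or 0.264% and 0.888% of counts. H3K18ac there had 3163 and 11159 CPM. Reads may be shared among copies of ribosomal RNA genes, and without the inputs the signal cannot be set against background. Leaving this peak out of the totals moved every log2 ratio by -0.01.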

How the data were processed

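The deposited tables list peaks with the nearest gene, a distance score to the gene start in bp, and 1 whole-number count per condition, per the file headers. They were taken as raw counts, although the authors may have rounded a normalised unit. MACS2 2.1.2, SAMtools 1.4.1, Bowtie2 2.3.5 and FastQC, and the builds ce11 and WBcel235, appear in the submitters' processing notes with no stated role. How reads were counted and filtered, and how inputs entered, is not given in the sources used here. The H3K27ac table had 17877 lines. Repeated lines (111) and mitochondrial peaks (3) were left out.

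Counts were scaled to 1000000 in nuclear peaks, and log2 ratios were taken without a pseudocount. Ratios were adjusted for strength by the median of 20 bins of mean CPM. Exact 95% intervals of the fold come from both counts. With 1 library a side no test was made. H3K18ac values are those of the overlapping H3K18ac peak (by at least 1 bp), and for classes the gene's own strongest H3K18ac peak. Gene types come from a RefSeq gene table that matched 91.7% of genes by symbol. No sequence was analysed. Python 3.11.15, pandas 2.3.3 and edgeR 4.0.16 (for trimmed-mean scaling only) were used, and the scripts were tested on simulated data.

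The members, classes and rules were chosen with earlier results of these data known. Named genes were cbp-1, atfs-1, dve-1, cco-1, hsp-60 and hsp-6, the 12 largest ratios in each direction among genes whose peak is within 1 kb of the start and at or above the 75th percentile of strength, up to 4 members a class with the largest ratios at or above median strength, and the 5 longest runs a direction. Genes named beyond this rule were chosen after their values were seen: nhr-226, nhr-23, fbxa-82, cebp-1, phb-2, tomm-40 and the weak or H3.3 histone genes. The same holds for unc-25 and cat-2.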

Additional observations from a re-analysis of the deposited data

How the results depend on the processing

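No paired analysis was possible because each group has 1 library, and none could be left out. The 1551 higher and 4098 lower peaks became 468 and 1317 at 2-fold, 806 and 997 in the stronger 50% of peaks, and 869 and 1815 with intervals wholly past 1.5-fold. Median scaling gave 2621 and 2564, and trimmed-mean scaling 2507 and 2685. Lower peaks numbered 1846 (10.4% of peaks) on strength-adjusted ratios and 2572 (14.5%) with 5 CPM added to both libraries. The difference between the strongest and weakest decile, 0.77, was 0.28 when peaks were ranked in the ev library.

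Lower counts moved for these classes. C-type lectins (42) went to 27 with median scaling and 18 strength-adjusted. F-box genes (65) went to 28 without the left part of chromosome II. MATH and BTB genes (20) went to 11 with median scaling, 12 with trimmed-mean scaling, 12 strength-adjusted and 2 without that part. Chemoreceptors (114) went to 69 with median scaling, 72 with trimmed-mean scaling, 41 strength-adjusted and 67 with 5 CPM added. Germ granule and oocyte genes (22) went to 14 with median scaling. Sperm genes (19) went to 7 strength-adjusted and 12 with 5 CPM added. Higher bZIP genes (8) went to 3 at the peak nearest to the start and 4 of 15 within 1 kb. The counts of UPRmt effectors, nuclear receptors and histones stayed within 1.5 times under every setting tried. Of 955 values of 191 named genes under alternatives 600 stayed in their counting interval and 349 moved out of it. The other 6 changed sign at genes past 1.5-fold in the main setting, and sign changes of smaller ratios are not counted among them. All 6 were at the peak nearest to the start: F41H10.3 -0.25, pyk-1 -0.45, cpt-4 -0.16, unc-51 -0.27, irg-3 0.18 and K11H12.t1 -0.18. The causes were not tested. The exclusion of the left part of chromosome II, the interval rule, the ribosomal RNA exclusion, the run counts with median scaling and the muscle sum without unc-60 were chosen after seeing the data.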
